A study of Mus musculus with 6 samples.

Results

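The genes described here are 48 factors that build ribosomes, taken from the count table by gene symbol and read in 4 lung tumors and 2 samples of normal lung. The table held a row for 47 of them, among 22477 rows in all, and Noc2l was not analysed here. They were grouped by role as 7 core proteins of small nucleolar ribonucleoproteins (snoRNPs), 6 abundant or multifunctional nucleolar proteins, called hub proteins here, 18 factors of the small ribosomal subunit and 17 of the large subunit. The mice carried floxed Rb1, floxed p53 (Trp53) and a lox-stop-lox Myc allele with the T58A change, a model of small cell lung cancer called RPM. Tumors were started at 8 weeks of age by putting Ad5CGRP-Cre, an adenovirus that expresses Cre from the promoter of the neuroendocrine peptide CGRP, into the trachea. The labels give the same genotype and the same virus for the normal lung, so both groups share them. The protocol describes arms of vehicle, entinostat, anti-PD-1 and their combination, but the labels do not say whether or how any of these 6 mice was treated. Libraries are called normal 1 and 2 and tumor 3 to 6 after the sample titles, each from a different mouse.

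A ribosome is assembled mostly in the nucleolus, where RNA polymerase I makes a long precursor that is cut and trimmed into ribosomal RNA while ribosomal proteins are added. Box C/D and box H/ACA snoRNPs use small guide RNAs to methylate and pseudouridylate the precursor, and many further factors, which are not part of the finished ribosome, then fold, cut and export each subunit. Myc is known as an activator of many of these genes, and their output is a textbook mark of fast-growing cells.

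Total counts ran from 54735438 in tumor 4 to 99122494 in normal 1. RNAs without a poly(A) tail (Rn45s, Rpph1 and Rmrp) took 0.238% and 0.550% of the counts of the normal libraries and 5.46% to 13.9% of those of the tumors. All 11 listed neuroendocrine markers were higher in the tumors, with a summed level of 977 to 1555 CPM (CPM are the counts of a gene relative to the scaled library size) against 23.3 and 31.8 in normal lung. Of the markers of alveolar type 2 cells, 7 of 7 fell, with 57.2 to 723 summed CPM in tumors against 23547 and 21353, as did 6 of 6 for alveolar type 1 cells and 7 of 7 for endothelium. Other lists were mixed: 4 of 5 club, 5 of 6 ciliated, 5 of 7 macrophage, 6 of 7 T and NK cell, 4 of 5 B cell and 4 of 7 fibroblast markers fell. Summed fibroblast markers stood at 1849 and 1808 CPM in normal lung and at 456, 312, 390.1 and 1049 CPM in tumors 3 to 6, so tumor 6 kept the most. The part of these cells in the results was not tested. Whole tissue was sequenced, so more cells of a type and more RNA per cell cannot be told apart in any value below.

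Nearly every ribosome biogenesis factor was more abundant in the tumors. Of the 47 factors, 44 rose, 0 fell and 3 small subunit factors (Imp3, Ddx10 and Bysl) did not pass the test (edgeR quasi-likelihood, Benjamini-Hochberg adjusted p under 0.05). The background is high in this comparison, since of the 18027 genes in the fit 31.3% rose, 32.6% fell and 63.9% moved in either direction. At least a 2-fold rise was seen for 42 factors, against 25.7% of all genes. The log2 fold change was above 0 for 46 factors, against 50.3% of all genes, and its median was 1.93, where all genes had a median of 0.02. The summed level of the factors was 1699 and 1922 CPM in normal 1 and 2, and 7469, 10723, 6588 and 8653 CPM in tumors 3 to 6. All 4 tumors lay above both normal libraries for 46 factors, a pattern that 37.4% of all genes showed, and Bysl was the exception.

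**Figure D1:**
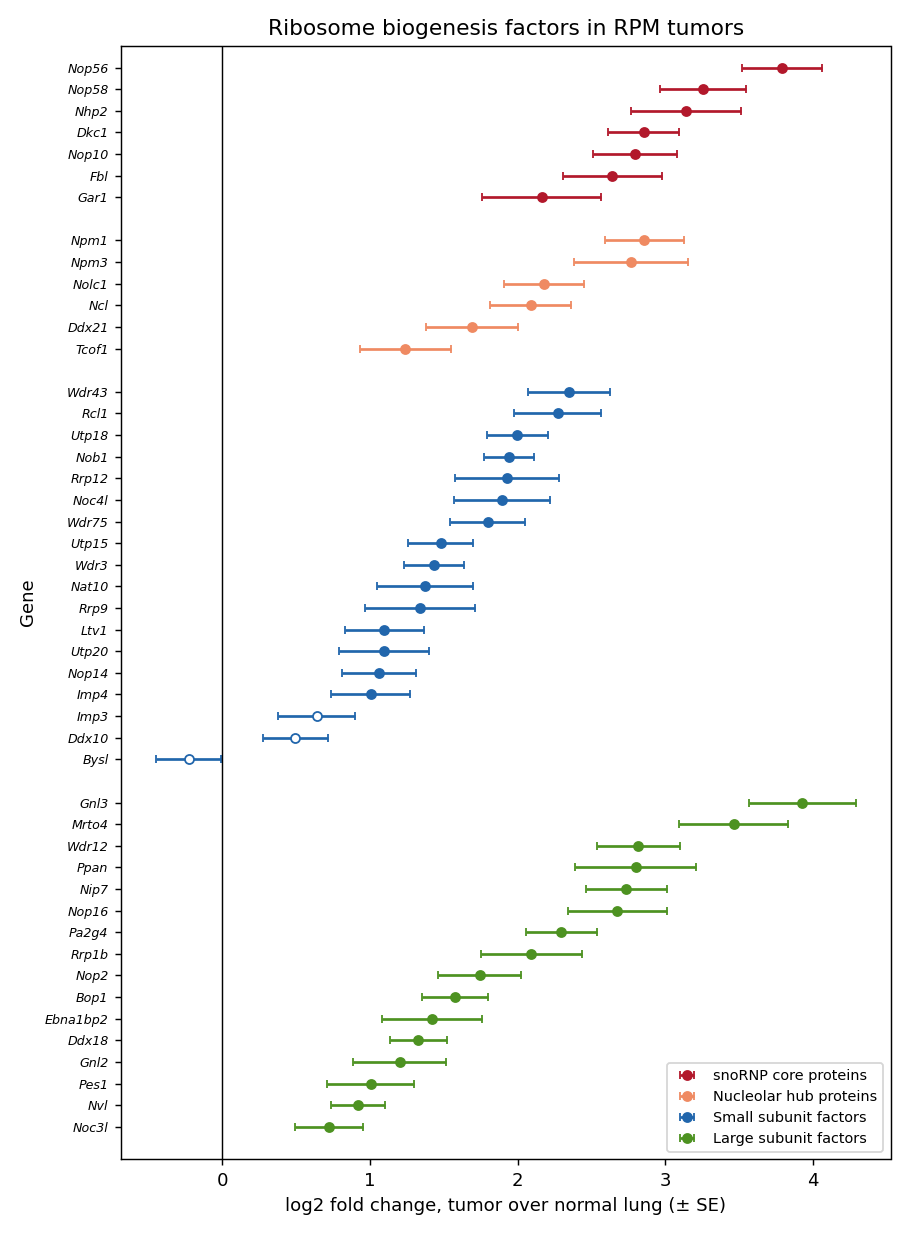
Log2 fold change of tumor over normal lung (horizontal axis, ± SE) for each of the 47 factors, ordered within its role group. Filled points passed the test and open points did not. Values run from -0.23 for Bysl to 3.93 for Gnl3, and the open points are Imp3, Ddx10 and Bysl.

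Median log2 fold changes were 2.85 for the snoRNP core proteins, 2.13 for the hub proteins, 1.92 for the large subunit factors and 1.40 for the small subunit factors. These medians are descriptions of the lists, and the differences between them were not tested. The call did not rest on a single tumor, but the normal libraries mattered: without normal 1 the test called 32 factors higher, and without normal 2 it called 34, where the spread of the single normal library left is taken from the tumors. The background fell too, to 18.0% and 20.0% of all genes higher, while the median log2 fold change of the factors was 1.79 and 1.98.

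Promoters were searched because these genes moved together and because Myc binds the E-box CACGTG. Of the 47 factors, 41 had a RefSeq promoter window on GRCm38.p6, which covers 250 bases before to 50 bases after a start of the gene. A gene with several windows, such as Wdr12, counted as a match if any of them held the motif. The number of windows per gene was not matched between the factors and all genes. The E-box stood in 7 of these 41 (17.1%), against 10.6% of the 13120 tested genes with a window. The further biogenesis factors described below held it in 18 of 91 (19.8%), and cytosolic ribosomal protein genes in 6 of 58 (10.3%). By role the E-box stood in 5 of 17 small subunit factors (29.4%), 2 of 14 large subunit factors (14.3%), 0 of 6 snoRNP core proteins and 0 of 4 hub proteins. These groups are too small to compare. The letters CCGGAAG, read by ETS factors, stood on either strand in 13 of 41 (31.7%), against 16.03% of all. Further biogenesis factors held CCGGAAG in 37 of 91 (40.7%) and ribosomal protein genes in 24 of 58 (41.4%), so it is not particular to the 47. The NRF1 motif, GCGCA followed by its reverse complement, stood in 0 of 41 against 1.90%, and AAGATGGC (YY1) in 1 of 41 against 4.31%. The E-box and CCGGAAG were searched separately and share no overlap in the windows printed. A match here is a description of letters, and no match says only that they are absent from this window.

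The 7 E-boxes are shown with up to 10 bases on each side, in the direction of the gene, with the E-box in capitals, because they are the windows that hold the Myc motif. Positions count from 1 at the first base of the gene, with -1 just before it. The E-box began at -121 in Imp4, -60 in Nop2 and -20 in Utp18, upstream of the start, and at 3 in Pes1, 18 in Wdr43, 29 in Ltv1 and 38 in Utp20. The printed spans are chr1:34439698-34439723 (+) for Imp4, chr6:125131813-125131838 (+) for Nop2, chr11:93885771-93885796 (-) for Utp18, chr11:3963967-3963992 (+) for Pes1, chr17:71616222-71616247 (+) for Wdr43, chr10:13193094-13193119 (-) for Ltv1 and chr10:88826765-88826787 (-) for Utp20. The Utp20 window ends where the promoter record ends.
Imp4: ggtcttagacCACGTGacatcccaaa
Nop2: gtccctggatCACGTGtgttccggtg
Utp18: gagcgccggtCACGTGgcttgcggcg
Pes1: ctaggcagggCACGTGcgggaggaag
Wdr43: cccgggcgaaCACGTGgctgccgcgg
Ltv1: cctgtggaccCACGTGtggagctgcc
Utp20: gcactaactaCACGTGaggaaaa
The log2 fold changes of these 7 genes ran from 1.01 (Imp4 and Pes1) to 2.34 (Wdr43).

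The 120 bases before the start are shown for Gnl3 and Nop56, the factors of highest fold change, and for Nhp2 and Utp18, high members of their groups whose window holds a motif. Capitals mark CACGTG and CCGGAAG. The spans are chr14:31019132-31019251 (-) for Gnl3, chr2:130274292-130274411 (+) for Nop56, chr11:51619653-51619772 (+) for Nhp2 and chr11:93885767-93885886 (-) for Utp18.
Gnl3: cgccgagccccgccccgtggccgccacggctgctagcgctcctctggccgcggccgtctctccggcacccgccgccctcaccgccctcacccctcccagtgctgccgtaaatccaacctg
Nop56: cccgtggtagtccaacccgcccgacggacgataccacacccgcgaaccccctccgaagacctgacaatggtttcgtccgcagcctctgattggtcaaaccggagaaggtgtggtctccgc
Nhp2: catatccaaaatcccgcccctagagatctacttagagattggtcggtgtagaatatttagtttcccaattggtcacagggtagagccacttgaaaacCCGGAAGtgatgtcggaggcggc
Utp18: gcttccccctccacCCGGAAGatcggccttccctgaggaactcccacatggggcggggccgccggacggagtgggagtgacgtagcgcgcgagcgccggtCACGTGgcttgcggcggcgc
GC content of these stretches was 75.8% for Gnl3, 62.5% for Nop56, 48.3% for Nhp2 and 73.3% for Utp18. Gnl3 and Nop56, with the highest fold changes of all 47 factors, held neither motif in the bases shown.

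All 7 core proteins of snoRNPs among the 48 rose, and theirs was the highest median of the 4 role groups. Box C/D particles hold Fbl (fibrillarin, the methyltransferase) with Nop56, Nop58 and Nhp2l1. Nhp2l1 is not among the 48 and was counted with the further factors below. Its log2 fold change of 1.99 ± 0.22 (edgeR adjusted p = 0.000392) was below those of the 7. Nop56 stood at 32.0 and 41.2 CPM in normal 1 and 2 and at 493, 605, 393 and 531 CPM in tumors 3 to 6, so the lowest tumor was far above the higher normal library. The tumor mean was 506 ± 88.5 CPM (SD, n = 4) and the normal mean 36.6 ± 6.51 CPM (SD, n = 2), which is a 13.8-fold rise (log2 3.79 ± 0.27, SE, edgeR adjusted p = 8.55e-05). Nop58 had 30.0 and 38.5 CPM in normal lung and 329.6, 435, 265 and 279 CPM in tumors 3 to 6, a log2 fold change of 3.25 ± 0.29 (edgeR adjusted p = 0.000189). Fbl, the enzyme of the same particle, had a smaller fold change. It had 15.0 and 19.7 CPM in normal lung and 99.8, 156, 78.7 and 98.0 CPM in tumors 3 to 6, a log2 fold change of 2.64 ± 0.33 (edgeR adjusted p = 0.000693). No tumor overlapped a normal library for Nop56, Nop58 or Fbl.

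Box H/ACA particles hold Dkc1 (dyskerin, the pseudouridine synthase) with Nhp2, Nop10 and Gar1, and this set of proteins is also part of telomerase. Dkc1 went from 27.4 and 32.0 CPM to 195, 266, 172 and 225 CPM in tumors 3 to 6, a log2 fold change of 2.85 ± 0.24 (edgeR adjusted p = 0.00015). Nhp2 went from 16.8 and 18.7 CPM to 173, 222, 99.6 and 130.4 CPM (3.14 ± 0.37, edgeR adjusted p = 0.000541). Nop10 went from 34.5 and 37.3 CPM to 311, 286, 180.4 and 217 CPM (2.79 ± 0.28, edgeR adjusted p = 0.000307), and it was the only factor of the 47 with its highest value in tumor 3. Gar1, which joins the particle last, was the lowest of the group in fold. It had 5.87 and 7.69 CPM in normal lung and 23.3, 48.3, 22.5 and 27.3 CPM in tumors, a log2 fold change of 2.16 ± 0.40 (edgeR adjusted p = 0.00352). Tumor 4 held most of the spread of Gar1, and the other 3 tumors lay within 22.5 to 27.3 CPM.

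All 6 hub proteins rose. Npm1 (nucleophosmin), a histone chaperone and scaffold of the outer nucleolus, had 231 and 237 CPM in normal lung and 1529, 2072, 1326 and 1863 CPM in tumors 3 to 6, a 7.25-fold difference (log2 2.86 ± 0.27, edgeR adjusted p = 0.000223). Its relative Npm3 went from 13.5 and 15.2 CPM to 103, 146, 63.3 and 78.6 CPM (2.77 ± 0.38, edgeR adjusted p = 0.00101). GENCODE names 1 pseudogene after Npm3 and 2 after Mrto4, so reads of these 2 genes may be shared with near copies. The search was by name only and would miss near copies of any factor that carry another name. Ncl (nucleolin), which binds the precursor and opens chromatin of its genes, went from 222 and 257 CPM to 827, 1331, 842 and 1074 CPM (2.09 ± 0.27, edgeR adjusted p = 0.000816).

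Nolc1 and Tcof1 are related, heavily phosphorylated proteins that tie snoRNPs to RNA polymerase I, and the difference between their fold changes was not tested. Nolc1 went from 44.9 and 53.9 CPM to 182, 286, 178 and 249 CPM (2.18 ± 0.27, edgeR adjusted p = 0.000638). Tcof1 (treacle) went from 25.2 and 31.0 CPM to 45.2, 81.3, 54.4 and 84.2 CPM, the smallest rise of the hub group (1.24 ± 0.31, edgeR adjusted p = 0.0115). Tcof1 no longer passed when normal 1 was left out (1.09, adjusted p = 0.0954) or normal 2 was left out (1.38, adjusted p = 0.0510). Ddx21, a helicase that links transcription and modification of the precursor, lay between these at 1.69 ± 0.31 (edgeR adjusted p = 0.00337).

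**Figure D2:**
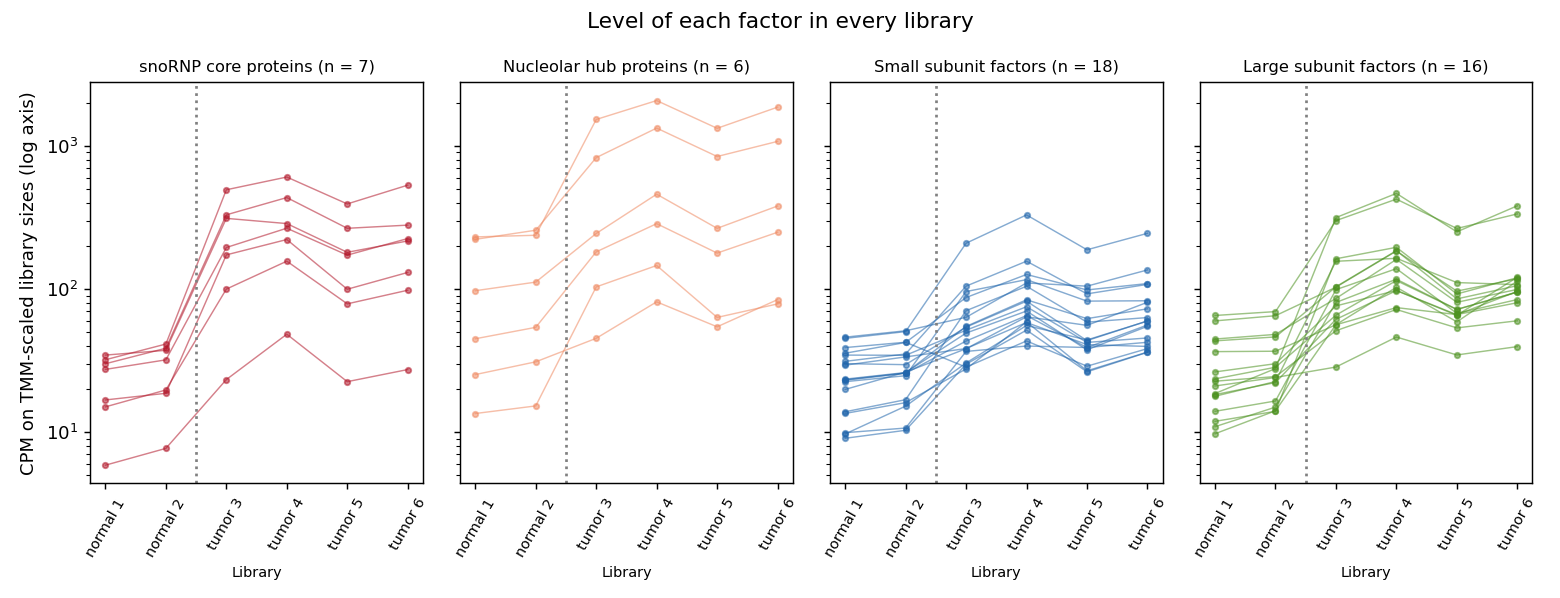
Level of each of the 47 factors in every library, in CPM on a log axis, with 1 panel per role group. A line joins the values of a single gene and the dotted line parts normal lung from tumors, which carry no order among themselves. Npm1 and Ncl are the topmost lines of the hub panel, and tumor 4 is the peak of most lines.

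Of the 18 small subunit factors, 15 rose and 3 did not pass. Wdr43, a subunit of the complex that binds the nascent precursor, led them, going from 45.2 and 50.4 CPM to 209, 329, 188 and 245 CPM in tumors 3 to 6 (log2 fold change 2.34 ± 0.28, edgeR adjusted p = 0.000534). Rcl1, which in yeast is needed for an early cut of the precursor, went from 13.9 and 16.8 CPM to 70.5, 104, 58.6 and 63.1 CPM (2.27 ± 0.29, edgeR adjusted p = 0.000768). Utp18, of the small subunit processome, went from 22.5 and 24.8 CPM to 95.9, 116, 82.2 and 82.7 CPM (2.00 ± 0.21, edgeR adjusted p = 0.000329). For these 3 genes the lowest tumor stood well above the higher normal library.

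Nob1, the nuclease that makes the final cut of the small subunit RNA, was the steadiest factor across tumors. It had 9.90 and 10.7 CPM in normal lung and 36.6, 39.9, 39.0 and 42.4 CPM in tumors 3 to 6, a log2 fold change of 1.94 ± 0.17 (edgeR adjusted p = 0.000174). The coefficient of variation of its level among tumors was 6.07%, against a median of 25.7% and a highest value of 40.0% over the 47 factors. Close to it in fold were Rrp12, an export factor, at 1.93 ± 0.35, and Noc4l, the partner of Nop14, at 1.89 ± 0.32, both past the threshold.

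Other members rose by less. Wdr75 (log2 fold change 1.80) and Utp15 (1.48) belong to the same complex as Wdr43, and Wdr3 (1.43) is part of another early complex. Wdr3 shares 847 exonic bases (16.2%) with Gdap2 and Spag17 in GENCODE on GRCm38, so its counts are uncertain. Nat10, the acetyltransferase of ribosomal RNA, rose by 1.37, Rrp9 of the U3 snoRNP by 1.34, the export factor Ltv1 by 1.10, Utp20 by 1.09, Nop14 by 1.06 and Imp4 by 1.01. The calls of Rrp9, Nop14, Utp20, Ltv1 and Imp4 were lost without either normal library and that of Nat10 without normal 1. Small subunit factors that passed numbered 9 without normal 1 and 10 without normal 2.

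The 3 that missed the threshold were Imp3, Ddx10 and Bysl. Imp3 binds the precursor together with Imp4 and Mphosph10, and had 34.5 and 34.4 CPM in normal lung and 51.5, 75.1, 42.3 and 45.5 CPM in tumors 3 to 6. Its log2 fold change was 0.64 ± 0.26 (edgeR adjusted p = 0.0688), and it passed in 7 of the 15 alternatives, among them DESeq2 (0.70, adjusted p = 0.0375) and total counts (0.61, adjusted p = 0.0489). Ddx10, a helicase, had 29.3 and 33.5 CPM in normal lung and 38.3, 58.3, 40.8 and 39.7 CPM in tumors, with tumor 4 apart from the rest (0.49 ± 0.22, edgeR adjusted p = 0.0907). It passed with upper quartile scaling (0.61, adjusted p = 0.0422) and with the stricter filter (0.58, adjusted p = 0.0492).

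Bysl (bystin), an assembly and export factor of the small subunit, was the single factor whose groups overlapped. It had 38.9 and 42.4 CPM in normal lung and 28.4, 43.3, 28.9 and 38.3 CPM in tumors 3 to 6, so tumor 4 was the highest library and tumor 3 the lowest. Its log2 fold change was -0.23 ± 0.22 (edgeR adjusted p = 0.392), and over the 15 alternatives it ran from -0.35 to -0.11 without passing. Bysl shares 361 exonic bases (9.37%) with the neighboring cyclin gene Ccnd3 in GENCODE on GRCm38. Ccnd3 itself stood at 98.0 and 101 CPM in normal lung and at 11.3 to 15.3 CPM in tumors (log2 fold change -2.92, edgeR adjusted p = 4.28e-05). Reads of the shared bases cannot be assigned in these counts, and the part of Ccnd3 in the Bysl value was not tested.

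All 16 large subunit factors with a row rose. Gnl3 (nucleostemin), a nucleolar GTPase first described in stem and cancer cells, had the highest fold change of the 47 factors. It had 18.6 and 27.8 CPM in normal lung and 315, 465, 251 and 381 CPM in tumors 3 to 6, or 353 ± 91.8 (SD, n = 4) against 23.2 ± 6.49 (n = 2), a 15.2-fold difference (log2 3.93 ± 0.36, edgeR adjusted p = 0.000204). Mrto4, a placeholder for a protein of the ribosomal stalk, went from 11.9 and 14.0 CPM to 163, 195, 92.3 and 119.9 CPM (3.46 ± 0.37, edgeR adjusted p = 0.000361).

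Pes1, Bop1 and Wdr12 form the PeBoW complex, which is needed to process the precursor of the large subunit, and their genes had fold changes of unequal size. Wdr12 went from 10.9 and 14.9 CPM to 80.5, 117, 72.0 and 95.1 CPM in tumors 3 to 6 (2.82 ± 0.28, edgeR adjusted p = 0.000283). Bop1 went from 26.3 and 30.0 CPM to 76.1, 97.7, 66.1 and 96.1 CPM (1.58 ± 0.22, edgeR adjusted p = 0.00105). Pes1 went from 59.8 and 65.0 CPM to 103, 184, 96.6 and 118 CPM (1.01 ± 0.29, edgeR adjusted p = 0.0219). In each case all tumors were above normal lung, but Pes1 no longer passed when normal 1 (0.94, adjusted p = 0.130) or normal 2 (1.05, adjusted p = 0.0971) was left out.

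Ppan (2.80), Nip7 (2.74) and Nop16 (2.68), all needed for early large subunit particles, had fold changes like that of Wdr12. Pa2g4, also called Ebp1, rose by 2.30, Rrp1b by 2.09, the RNA methyltransferase Nop2 by 1.74, Ebna1bp2 by 1.42, the helicase Ddx18 by 1.33 and the GTPase Gnl2 by 1.20. Nvl, an ATPase that strips factors from the particle, went from 36.5 and 36.7 CPM to 56.2, 74.1, 66.2 and 80.2 CPM (0.92 ± 0.18, edgeR adjusted p = 0.00487). Noc3l was the lowest of the group, going from 20.998 and 24.1 CPM to 28.5, 46.1, 34.6 and 39.6 CPM (0.72 ± 0.23, edgeR adjusted p = 0.0309). Ebna1bp2, Gnl2 and Noc3l lost their call without either normal library, and Nvl without normal 1 (adjusted p = 0.0514).

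Because the scaling between libraries cancels in a ratio of 2 genes of the same library, 12 ratios between subunits of a complex were also taken, chosen after the fold changes were seen. The ratio of Wdr12 to Pes1 counts was 0.182 and 0.230 in normal lung and 0.782, 0.635, 0.745 and 0.807 in tumors 3 to 6, a 3.61-fold difference. The ratio of Nop56 to Fbl was 2.13 and 2.09 in normal lung and 4.94, 3.87, 4.99 and 5.42 in tumors. The ratio of Nop56 to Nop58 was 1.07 in both normal libraries and 1.39 to 1.90 in tumors. The groups did not overlap for these 3 ratios, nor for 8 of the other 9, and Mphosph10 to Imp4 was the exception.

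These ratios are given as a description, with no test, because the complexes were picked after the fold changes were seen. The separation of the groups largely follows from the unequal fold changes already given. For box H/ACA each protein was set against Gar1, the lowest of that group in fold. How often other pairs of genes separate in this way was not counted, so the number of separated ratios has no background beside it. The subunits of box H/ACA particles also parted, with Dkc1 to Gar1 at 4.67 and 4.16 in normal lung and 5.50 to 8.37 in tumors. Mphosph10 to Imp3 was 0.832 and 0.938 in normal lung and 1.34 to 1.78 in tumors. A ratio compares 2 genes and does not show which of them changed.

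**Figure D3:**
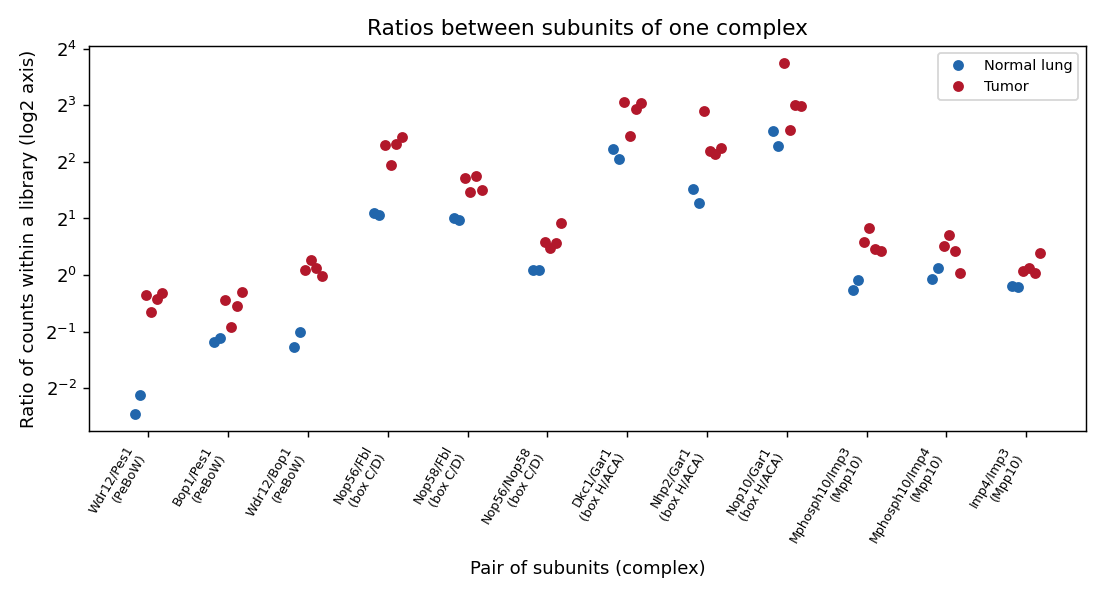
Ratio of the counts of 2 subunits of a complex in each library, on a log2 axis, for 12 pairs. Blue points are the 2 normal libraries and red points are tumors 3 to 6 from left to right. Wdr12 to Pes1 moves furthest, from 0.182 and 0.230 to between 0.635 and 0.807, and Mphosph10 to Imp4 is the pair whose groups overlap.

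Within the tumors the factors moved together. Tumor 4 was the highest of the 4 tumors for 38 of 47 factors (80.9%), where it was highest for 28.6% of all genes tested. Tumor 5 was lowest for 29 factors and tumor 3 for 17, against 20.5% and 25.5% of all genes. Tumor 6 was highest for 8, among them Rrp12, Ppan and Rrp1b, and Nop10 was the 1 factor highest in tumor 3. The order of tumor 4 held without composition scaling, where it was highest for 37 factors, but the lowest tumor did not, since tumor 3 was then lowest for 31 and tumor 5 for 11. Factors differed between the highest and lowest tumor by 1.16-fold (Nob1) to 2.31-fold (Npm3), with a median of 1.75-fold. The lowest tumor stood above the higher normal library by a median ratio of 2.63, from 0.669 for Bysl to 9.53 for Nop56.

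The levels of Myc beside this were 7.90 and 18.2 CPM in normal 1 and 2 and 70.2, 169, 84.1 and 175 CPM in tumors 3 to 6, which does not separate the engineered from the native gene. Tumor 4 had the fewest counts and the second highest share of RNAs without a tail, 11.8%. A list of 20 cell cycle genes did not follow the same order, with summed levels of 3846, 4013, 4728 and 3976 CPM in tumors 3 to 6 and 368 and 408 CPM in normal lung. The part of Myc, tailless RNAs or cycling cells in these differences was not tested. In normal lung, 45 of the 47 factors were higher in normal 2 than in normal 1, by a median ratio of 1.14, where 10018 of 18027 genes were higher and the median ratio was 1.02.

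**Figure D4:**
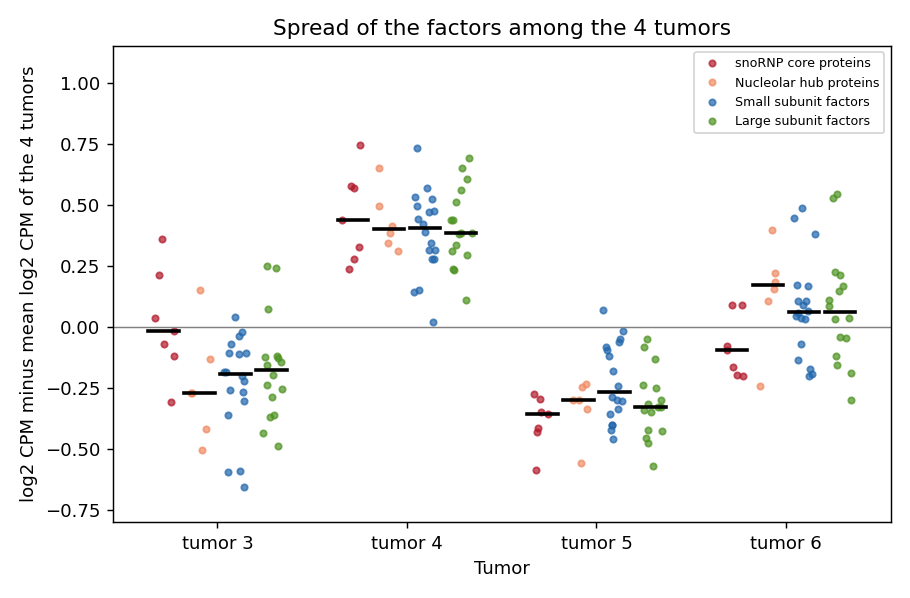
Log2 CPM of each factor minus its mean over the 4 tumors (vertical axis), by tumor and role group, with a black bar at each group's median. The 4 medians of tumor 4 lie between 0.38 and 0.44, and those of tumor 5 between -0.36 and -0.27.

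A further 122 gene symbols of the pathway were listed by role, and 117 of them had a row and were tested. Some symbols are older and newer names of the same gene, as with Eftud1 and Efl1, so the list holds fewer distinct factors. In this list 89 rose and 2 fell, 26 missed the threshold, and the median change was 1.23 on the log2 scale. Of all genes tested, 31.3% rose and 32.6% fell. The snoRNP assembly list here also holds Nhp2l1, the box C/D protein named above. By role, 12 of 13 snoRNP assembly factors rose, 27 of 42 small subunit factors, 39 of 48 large subunit factors and 11 of 14 genes of the RNA exosome, the nuclease that trims precursors. The smallest p among those that rose belonged to Cirh1a (5.10-fold), of the Wdr43 complex, Dimt1 (5.24-fold), which dimethylates small subunit RNA, and Znhit3 (6.83-fold), which helps assemble box C/D particles. In GENCODE on GRCm38, Znhit3 shares 277 exonic bases (13.0%) with Myo19 and Dimt1 shares 1229 (31.9%) with Kif2a, so the counts of both are uncertain, and Cirh1a was not matched there by symbol. Other genes of this list that rose overlap a neighbor too, among them Mak16 (39.4% of exonic bases, with Tti2) and Exosc6 (100%, with Aars). The counts by role carry the same limit. Dimt1 had 9.81 and 11.3 CPM in normal lung and 57.1, 58.6, 48.4 and 57.4 CPM in tumors 3 to 6, so its tumors were close together. Fewer of the list passed without normal 1. The median log2 fold changes were then 1.33 for snoRNP assembly, 0.81 for small subunit, 1.32 for large subunit and 1.41 for exosome genes.

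The 2 factors that fell both serve the large subunit. Sbds, which acts last in the cytoplasm, went from 95.0 and 97.5 CPM to 56.7, 58.3, 39.8 and 37.3 CPM in tumors 3 to 6 (log2 fold change -1.004 ± 0.22, edgeR adjusted p = 0.00733), with every tumor below normal lung. Rbm28 went from 80.7 and 88.4 CPM to 45.6, 54.6, 53.4 and 57.0 CPM (-0.68 ± 0.15, edgeR adjusted p = 0.00636), and it no longer passed when normal 2 was left out (-0.63, adjusted p = 0.0657). Sbds works with the GTPase listed as Eftud1 (Efl1) to release Eif6, and these partners were looked up after the value of Sbds was seen. Eftud1 stood at 25.4 and 25.5 CPM in normal lung and 13.6, 23.2, 15.6 and 18.0 CPM in tumors (-0.53 ± 0.25, edgeR adjusted p = 0.102). Eif6, which keeps the subunits apart until it is released, rose by 1.05 ± 0.26 (edgeR adjusted p = 0.0107), and the export adaptor Nmd3 rose by 2.43 ± 0.35 (edgeR adjusted p = 0.00117).

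Neighboring parts of ribosome production are given as lists beside the factors, where of all genes 31.3% rose and 32.6% fell. All 79 tested genes of cytosolic ribosomal proteins rose, with a median log2 fold change of 2.44 and summed levels of 21335 and 23094 CPM in normal lung and 116597, 148709, 87757 and 120873 CPM in tumors 3 to 6, again highest in tumor 4 and lowest in tumor 5. Of 15 RNA polymerase I genes 10 rose, 1 fell and 4 did not pass (median 1.38), and the 1 that fell was Ttf1, which ends transcription by that polymerase, at -1.13 ± 0.19 (edgeR adjusted p = 0.00243).

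**Figure D5:**
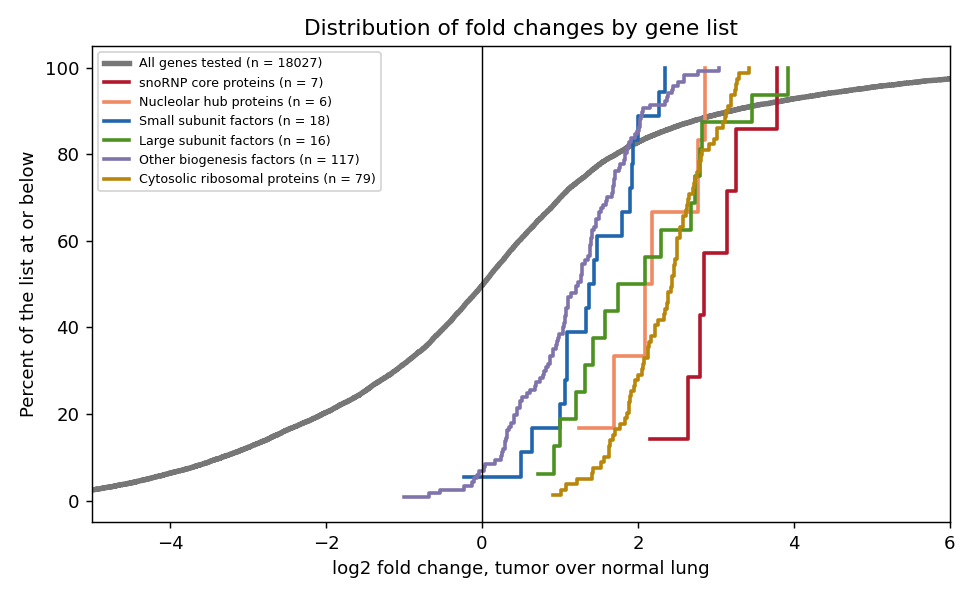
Percent of each list at or below a given log2 fold change of tumor over normal lung, for all 18027 genes tested, the 4 role groups, the 117 other biogenesis factors and 79 cytosolic ribosomal protein genes. The horizontal axis is cut at -5 and 6. Curves further right rose more, with medians of 0.02 for all genes, 1.40 for small subunit factors and 2.85 for snoRNP core proteins.

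Some of the factors carry snoRNA genes inside their own, and GENCODE on GRCm38 places 11 snoRNAs that have a row in the table within Gnl3, Ncl, Nop56, Nop58 and Wdr43. All 11 were higher in tumors (edgeR adjusted p under 0.05), where 31.3% of all genes were. Their counts in normal lung were low, from 0 for Snord110 in normal 1 to 32 for Snord82 in normal 2. Most rows this low enter the fit through their tumor counts, so a rise was likely in advance and the calls are no separate support. Snora75, inside Ncl, had 12 and 16 counts in normal 1 and 2 and 614, 652, 484 and 765 counts in tumors 3 to 6, and Snord69, inside Gnl3, had 4 and 7 counts against 472, 392, 434 and 558. These RNAs have no poly(A) tail and were counted after poly(A) selection. The share of tailless RNAs was higher in every tumor, as given above, and its part in these counts was not tested. Of the 11, 5 overlap an exon that GENCODE annotates for the host, where reads of the host and the snoRNA cannot be told apart. Snora75 and Snord69 are among these 5. Snord82, inside Ncl but outside its exons, had 20 and 32 counts in normal lung and 213, 174, 81 and 170 in tumors 3 to 6. Its fold change was the smallest of the 11.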

How the data were processed

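RNA of flash-frozen tissue was poly(A) selected and made into NEBNext Ultra II libraries, per the labels' protocols. Per the labels, the authors deposited raw counts for each gene from TPMCalculator. Per the submitters' processing notes, STAR 2.5.4a, the trimmers Trimmomatic 0.36 and Trim Galore, the build mm9, and R 3.5.1 with DESeq2 1.22.2 were named, without role or order. The sources used here do not state the annotation or strand setting. Of the counts from 1 to 10, 61.2% were even, so counts may hold both mates of a pair, and halved counts were tried. Counts were fitted over the whole table in edgeR 4.0.16 (R 4.3.3): the default group filter (at least 10 counts, total of 15), TMM scaling, tissue as the only term, quasi-likelihood test, and Benjamini-Hochberg adjustment over 18027 genes. SE is the log2 fold change divided by the square root of F. The fit was tested on simulated data. CPM use TMM-scaled library sizes. Depth was high, with at least 578 counts for every factor in every library, so the number of animals limits precision more than counting. P-values measure the spread between these 2 and 4 mice in 1 batch, with the spread of each gene drawn toward a trend over all genes fitted. Replicate pairs differed by more than sampling noise.

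The members, lists, naming rule and tests were chosen with earlier results of these data known, and the lists get no set test. Values in every library are given for the 3 highest and the lowest factor by fold change of each role group, for those that did not pass and for 10 textbook members. Partners of Sbds, subunit ratios, overlapping genes and motifs were chosen after values were seen. Alternatives were no filter, scaling by RLE, upper quartile or total counts, a filter of 1 CPM in every library of a group, removal of 1122 small RNA, Rn45s and histone rows, halved counts, DESeq2 1.42.0, limma voom 3.58.1, and leaving out each library. Gene structure came from GENCODE M21 and promoters from RefSeq, both on GRCm38 and not on mm9, and were used only for names, overlaps and the sequences printed.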

Additional observations from a re-analysis of the deposited data

Results flagged for a closer look

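Ddx10 in tumor 4 stood apart from the other tumors. Its level of 58.3 CPM left a gap to the next tumor of 0.874 of the whole range of the 4 tumors, past the 95% limit of 0.829 for 4 values. It was the only such case among the 47 factors, and chance alone flags about 1 group in 20.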

How the results depend on the processing

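No paired analysis was possible because normal and tumor libraries share no replicate number. Of the 15 alternatives, every one kept the direction of all 47 factors, and the number that rose ran from 44 to 46 over the 9 alternatives that use all libraries. Leaving out a library gave 32 to 45 factors higher and 0 lower. Calls were lost for 12 factors without normal 1 and for 10 without normal 2, where fewer normal samples enter, and no factor lost its call under another alternative. Of the further biogenesis factors, 55 to 93 were higher and 1 to 3 lower when a library was left out, with 55 higher without normal 1 and 1 lower without normal 2. Upper quartile scaling moved the median log2 fold change of all genes to 0.14 and that of the factors to 2.05, and the difference between the medians was 1.91 under both scalings.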
